A study of Homo sapiens with 28 samples.

Results

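The insulin-like growth factor binding proteins, IGFBP1 to IGFBP7, are secreted proteins that hold the growth factors IGF1 and IGF2 outside the cell. Their 7 genes, of the 11963 named on the array, were read through every probe set with 1 of these gene symbols, 14 of the 22277 probe sets. The genes were followed in A549 and H1299, established human non-small cell lung cancer lines. Cells of each line received azacitidine or decitabine at 0.3, 1 or 3 µM for 48 h, renewed every 24 h, or the vehicle dimethyl sulfoxide. After incorporation into DNA both drugs, analogs of cytidine, capture DNA methyltransferases, so that newly made DNA loses methylation. Azacitidine carries a ribose and also enters RNA, while decitabine carries a deoxyribose. The 14 groups of line, drug and dose had 2 arrays each, 28 in all, and the number of arrays limits the precision. The labels do not say that the 2 arrays of a group came from separate cultures, so each p measures only the spread between these samples. The first A549 array with decitabine at 3 µM is labelled as a repeat.

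IGFBPs compete with the IGF1 receptor for the growth factors, and by holding them can either restrain or prolong their action. IGFBP3 is the main carrier in blood, where it forms a complex with an acid-labile subunit. IGFBP6 prefers IGF2 over IGF1, and IGFBP7 binds IGFs only weakly and is found in the matrix around vessels. Proteases such as PAPPA, which cuts IGFBP4, free the bound growth factor. In lung cancer, IGFBP3 is known as a gene that can be silenced by promoter methylation.

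Values are MAS5 signals on a linear scale, with every array scaled to the same trimmed mean. Differences are log2 differences on log2(signal + 32), which draws those of dim genes toward 0. A difference is written as called where limma's adjusted p over all 13249 kept probe sets was under 0.05. The main fit shares 1 estimate of each gene's spread over the arrays of both lines. Dim H1299 signals therefore enter the p of A549 comparisons, with more spread where the added constant (the pseudocount) is smaller than 32. A probe set was kept where it exceeded the array median, which ran from 92.7 to 123 across arrays, on at least 2 arrays. Of the 14 probe sets, 8 were kept, for 6 of the 7 genes. All 5 probe sets of IGFBP5 lay below the median on every array, with a highest signal of 76.6, as did 1 probe set of IGFBP7 (highest signal 78.9). Without the filter, 5 of the 135 tests of the IGFBP5 probe sets over the 27 comparisons were called and 19 had an unadjusted p under 0.05. The called ones lay in 2 of the 5 probe sets. One had 20.4 and 10.9 with azacitidine at 3 µM and 45.2 and 76.6 with vehicle in A549, a difference of -0.95 (adjusted p = 0.0039), while the brightest on average gave -0.09 there (adjusted p = 0.873). As all these signals lie under the array median, IGFBP5 is left out of the counts that follow. Of 5 epithelial markers, the keratins KRT8 and KRT18 exceeded the median on 14 of 14 arrays of each line. EPCAM did so on 14 A549 arrays and 6 H1299 arrays, KRT19 on 11 and 6, and CDH1 on 11 and 0. CDKN2A, which A549 is known to lack, did so on 0 of 14 A549 arrays and 14 of 14 H1299 arrays. Among 6 fibroblast, 3 endothelial and 3 leukocyte markers only COL1A1 exceeded the median on all arrays of both lines. COL1A2 did so on 4 H1299 arrays, DCN on 3 A549 arrays and 1 H1299 array and VWF on 1 H1299 array, and the other markers on 0 arrays, the defining genes LUM, PDGFRB, CDH5 and PTPRC among them.

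The promoters of 3 members are shown because these genes went in different directions with drugs that act on cytosine methylation, which in human cells sits mostly at CG. IGFBP3 and IGFBP6 rose with decitabine in H1299, and IGFBP4 fell with it in A549. Each sequence is the 250 bases before the RefSeq start in GRCh38.p14, 5′ to 3′ on the gene's strand, with every CG in capitals. They lie at chr7:45921273-45921522 on the minus strand for IGFBP3, chr12:53097417-53097666 on the plus strand for IGFBP6 and chr17:40443200-40443449 on the plus strand for IGFBP4.
IGFBP3: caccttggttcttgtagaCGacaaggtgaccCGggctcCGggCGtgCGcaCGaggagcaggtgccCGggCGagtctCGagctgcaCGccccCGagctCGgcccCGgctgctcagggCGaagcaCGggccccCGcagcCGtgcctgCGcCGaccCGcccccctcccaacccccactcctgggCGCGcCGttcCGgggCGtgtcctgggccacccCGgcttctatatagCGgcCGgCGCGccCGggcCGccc
IGFBP6: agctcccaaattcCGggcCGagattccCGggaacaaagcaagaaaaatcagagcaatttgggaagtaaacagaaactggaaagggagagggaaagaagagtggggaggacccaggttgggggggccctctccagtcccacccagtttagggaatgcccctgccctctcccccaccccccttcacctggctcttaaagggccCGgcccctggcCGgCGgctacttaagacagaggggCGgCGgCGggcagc
IGFBP4: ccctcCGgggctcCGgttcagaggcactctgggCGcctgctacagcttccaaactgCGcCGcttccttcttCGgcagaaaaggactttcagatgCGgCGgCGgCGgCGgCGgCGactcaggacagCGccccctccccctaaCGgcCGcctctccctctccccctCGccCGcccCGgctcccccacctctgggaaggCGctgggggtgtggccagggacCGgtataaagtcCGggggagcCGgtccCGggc
The IGFBP3 window held 32 CG dinucleotides, and 9.5% of the 35116 windows of this length held at least as many. The IGFBP4 window held 24 (23.7% of windows held at least as many) and the IGFBP6 window 9 (54.1%). The median window held 11, and 93.9% held at least 1. The search was for CG, which reads the same on both strands. RefSeq windows were also at hand for IGFBP2, with 7, 22 and 4 CG in its 3 windows, and for IGFBP5, with 8. These counts describe sequence, and no methylation was measured. IGFBP1 and IGFBP3 are neighbours on chromosome 7, and IGFBP2 and IGFBP5 are neighbours on chromosome 2.

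Without drug, A549 had far more IGFBP transcript signal than H1299. Per array, IGFBP3 had 2389 and 2540 in A549 vehicle cells, against 88.0 and 83.5 in H1299 vehicle cells, a log2 difference of 4.41 (SE 0.104, adjusted p = 3.54e-19). IGFBP6 had 667 and 725 in A549 and 145 and 103 in H1299, a difference of 2.23 (SE 0.136, adjusted p = 5.19e-12). IGFBP1, a liver-type IGFBP that insulin represses, had 109 and 108 in A549 and 16.5 and 18.6 in H1299. The vehicle arrays of the lines did not overlap for these genes. IGFBP4, an inhibitor of IGF action, averaged 5748 in A549 and 14.3 in H1299, and IGFBP7 averaged 6631 and 1.84. IGFBP2, which is abundant in many tumours, averaged 241 in A549 and 7.06 in H1299. The last 3 exceeded the array median on 14 of 14 A549 arrays and 0 of 14 H1299 arrays, treated ones included, and IGFBP1 on 12 A549 arrays and 1 H1299 array. These 4 genes passed the filter only through A549, so their levels in the lines are given as a description. The highest H1299 signals were 41.3 for IGFBP4, 22.1 for IGFBP7 by either kept probe set and 33.0 for IGFBP2, and responses of these 3 genes in H1299 are near the floor. Of all kept probe sets 62.7% were called between the lines without drug.

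In H1299, decitabine raised 3 members at every dose: IGFBP3, IGFBP6 and IGFBP1. Against vehicle, IGFBP3 reached 5.88 times the mean signal at 3 µM and IGFBP6 3.26 times. Both vehicle signals of IGFBP3 lay below their array medians (102 and 97.5), so its ratio starts from a dim baseline. IGFBP1 stayed dim throughout. Per array, IGFBP3 had 88.0 and 83.5 in vehicle cells, 233 and 211 at 0.3 µM, 434 and 427 at 1 µM, and 542 and 468 at 3 µM of decitabine. Both arrays of each dose lay above both vehicle arrays. The log2 differences from vehicle were 1.11 (adjusted p = 1.42e-07) at 0.3 µM, 1.97 (adjusted p = 1.13e-11) at 1 µM and 2.18 (adjusted p = 1.78e-12) at 3 µM, each with an SE of 0.104. IGFBP3 at 3 µM was higher than at 0.3 µM by 1.08 (adjusted p = 9.60e-07). The other kept probe set of IGFBP3 had 6.76 and 41.6 in vehicle cells, 113 and 14.5 at 0.3 µM, 166 and 174 at 1 µM, and 159 and 162 at 3 µM. By that probe set the lowest dose was not called (0.62, adjusted p = 0.245), while the differences at 1 and 3 µM were 1.92 and 1.85, both called.

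IGFBP6 had 145 and 103 in H1299 vehicle cells, 314 and 277 at 0.3 µM, 374 and 404 at 1 µM, and 395 and 415 at 3 µM of decitabine. Again the treated arrays lay above both vehicle arrays at each dose. The differences were 1.08 (adjusted p = 1.03e-05), 1.44 (adjusted p = 1.08e-07) and 1.50 (adjusted p = 4.62e-08) in order of dose, each with an SE of 0.136. The step between 0.3 and 3 µM, 0.42, was not called (adjusted p = 0.0626). IGFBP1 had 16.5 and 18.6 in vehicle cells, 92.1 and 133 at 0.3 µM, 73.3 and 70.2 at 1 µM, and 63.6 and 81.3 at 3 µM. Its highest signals were at the lowest dose, with differences of 1.53 (adjusted p = 8.77e-06), 1.07 (adjusted p = 3.66e-04) and 1.07 (adjusted p = 2.50e-04) in order of dose. The 3 µM minus 0.3 µM difference of IGFBP1 was -0.46 and was not called (adjusted p = 0.150). The size of the IGFBP1 differences depended on the pseudocount, which at its higher and lower alternatives gave 0.72 and 2.60 at 0.3 µM and 0.46 and 1.98 at 3 µM, called in both. Only 1 of the 14 H1299 arrays had IGFBP1 above its array median. IGFBP2, IGFBP4 and IGFBP7 were not called at any decitabine dose in H1299. In these comparisons 14.7%, 20.5% and 27.1% of all kept probe sets were called at 0.3, 1 and 3 µM, against 3 of 6 members at each. Of the 6, IGFBP1, IGFBP2, IGFBP4 and IGFBP7 passed the filter only through A549. The members' median difference at 3 µM was 0.77, beside -0.02 for all kept probe sets. This median rests on IGFBP1 (1.07) and on IGFBP4 (0.46), which was not called and lay near the floor. The epithelial markers summed to between 8351 and 8592 in H1299 with decitabine at 3 µM and to between 5014 and 5232 with vehicle, and their part in the result was not tested. These sums of linear signals are mostly KRT18 (H1299 median 5435, against 590 for KRT8 and 52.6 for EPCAM).

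**Figure D1:**
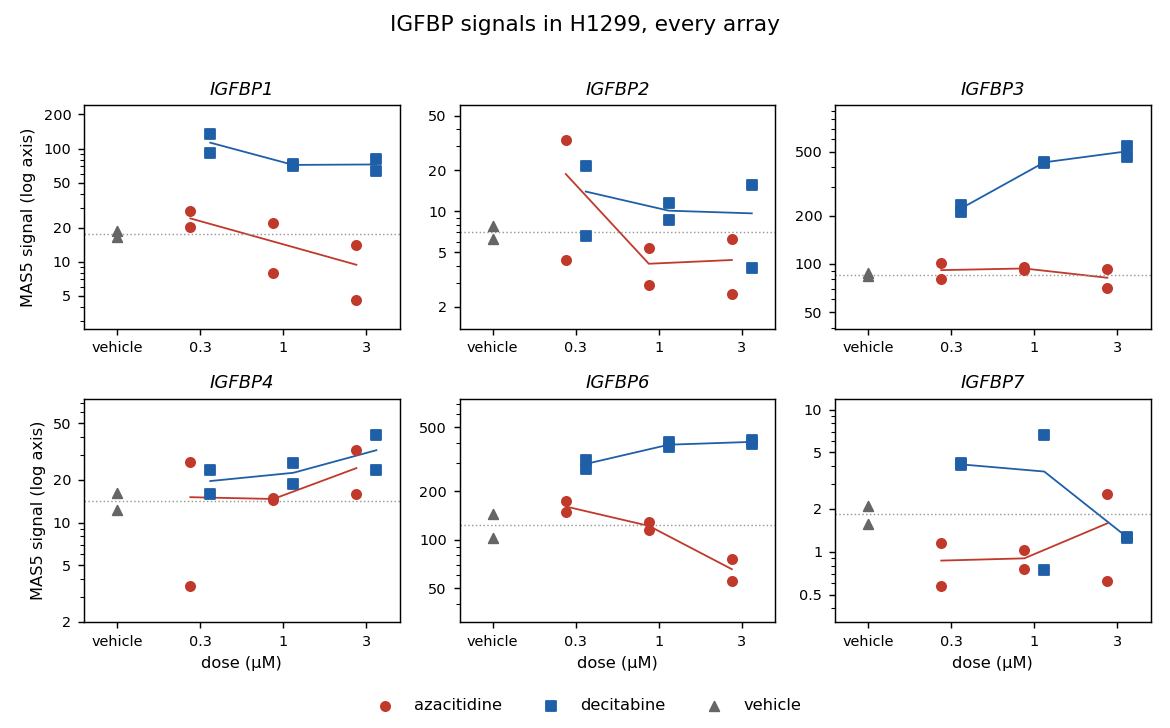
MAS5 signal (log axis) of 6 IGFBP genes on every H1299 array by dose in µM, with the vehicle at the left, azacitidine as circles and decitabine as squares; each point is 1 array, lines join group means and the dotted line is the vehicle mean. IGFBP3, IGFBP6 and IGFBP1 lie above vehicle at every decitabine dose, and IGFBP6 falls to 55.3 and 76.0 with azacitidine at 3 µM.

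By the probe sets that stand for the genes, azacitidine raised 0 of 6 members in H1299 and lowered 1. IGFBP6 had 145 and 103 in vehicle cells, 148 and 173 at 0.3 µM, 115 and 129 at 1 µM, and 55.3 and 76.0 at 3 µM of azacitidine. At 3 µM both arrays lay below both vehicle arrays, and IGFBP6 fell by 0.67 (SE 0.136, adjusted p = 2.87e-04), while the differences at 0.3 and 1 µM were 0.31 and -0.01 and were not called. Between 0.3 and 3 µM it fell by 0.99 (adjusted p = 3.39e-06). The 3 µM fall ran between -0.91 and -0.38 over the alternatives, with the pseudocount at both ends, and was called in each. IGFBP3 had 81.1 and 102 at 0.3 µM, 95.6 and 91.7 at 1 µM, and 93.1 and 70.9 at 3 µM, and at the highest dose these arrays overlapped those of vehicle. Its difference at 3 µM was -0.05 (95% interval -0.27 to 0.16, adjusted p = 0.700). IGFBP1 had 4.62 and 14.2 at 3 µM, a difference of -0.27 (adjusted p = 0.259) near the floor, and with a pseudocount of 1 it was larger and called (adjusted p = 0.0489). The other IGFBP7 probe set had 22.1 and 13.5 with azacitidine at 3 µM and 7.59 and 10.2 with vehicle, also near the floor, and its difference of 0.28 was called (adjusted p = 0.0364). Members called were 0 of 6 at 0.3 and 1 µM and 1 of 6 at 3 µM, while 4.08%, 32.8% and 51.0% of all kept probe sets were called in these comparisons. IGFBP1, IGFBP2, IGFBP4 and IGFBP7 passed the filter only through A549 and were dim in H1299 vehicle cells. A fall of these genes had little room to show, so the counts do not tell whether azacitidine spared them. In the 3 µM minus 0.3 µM comparison of azacitidine 1 of 6 members was called (52.4% of all kept probe sets), and likewise 1 of 6 for decitabine (8.12%).

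In A549 IGFBP6 went in opposite directions with the drugs. IGFBP6 had 667 and 725 in vehicle cells, 670 and 672 at 0.3 µM, 470.3 and 519 at 1 µM, and 409.8 and 395 at 3 µM of azacitidine. With decitabine it had 1070.5 and 1160.1 at 0.3 µM, 1383 and 1349 at 1 µM, and 1732 and 1312 at 3 µM. From 1 µM on, the azacitidine arrays lay below both vehicle arrays, and the decitabine arrays lay above them at every dose. With azacitidine IGFBP6 fell by 0.47 at 1 µM (adjusted p = 0.0159) and by 0.74 at 3 µM (adjusted p = 2.07e-04), and its difference at 0.3 µM was -0.05 (adjusted p = 0.908). With decitabine it rose by 0.66 (adjusted p = 0.0047), 0.94 (adjusted p = 7.26e-05) and 1.08 (adjusted p = 6.85e-06) in order of dose, each with an SE of 0.136. The fall at 1 µM was -0.41 and no longer called without the second vehicle array (adjusted p = 0.0908), and -0.40 without the first azacitidine array of that dose (adjusted p = 0.103), and with arrays centred on their medians it was -0.33 (adjusted p = 0.105). The rise at 0.3 µM of decitabine was 0.60 without the first vehicle array (adjusted p = 0.0608) or without the second decitabine array (adjusted p = 0.0586).

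IGFBP7 was lower with azacitidine in A549 by both kept probe sets. Its brighter probe set had 7446 and 5816 in vehicle cells, 5227 and 5670 at 0.3 µM, 4734 and 3999 at 1 µM, and 3233 and 3308 at 3 µM of azacitidine. The other had 3944 and 4363 in vehicle cells, 3304 and 3173 at 0.3 µM, 2646 and 2853 at 1 µM, and 2029 and 2113 at 3 µM. At 3 µM the mean of the brighter probe set was 0.493 times that of vehicle. The brighter probe set fell by 0.59 at 1 µM (SE 0.124, adjusted p = 0.0014) and by 1.00 at 3 µM (adjusted p = 2.22e-06), and the other fell by 0.59 and 0.99. With a pseudocount of 1 the brighter probe set was called at neither of these doses (at 3 µM, -1.01 with adjusted p = 0.0794). The differences themselves hardly moved, at -0.60 and -1.01. H1299 signals of 0.574 to 6.59 entered the shared spread, and their part in the lost calls was not tested. Without the first vehicle array the difference at 1 µM was -0.42 (adjusted p = 0.0540). With decitabine IGFBP7 had 4632 and 4871 at 0.3 µM, 5364 and 4852 at 1 µM, and 4297 and 5449 at 3 µM, all below both vehicle arrays. It was called at 0.3 µM (-0.47, adjusted p = 0.0260) and 3 µM (-0.44, adjusted p = 0.0129), not at 1 µM (-0.37, adjusted p = 0.0525). The first vehicle array, 7446, carried much of this: without it the differences were -0.29 (adjusted p = 0.356) at 0.3 µM and -0.26 (adjusted p = 0.237) at 3 µM. Leaving out the first decitabine array of 0.3 µM (-0.43, adjusted p = 0.164), the second (-0.50, adjusted p = 0.0871) or the repeat array of 3 µM (-0.27, adjusted p = 0.238) also ended the call, as did a pseudocount of 1 and, at 0.3 µM, fitting A549 alone (adjusted p = 0.0610), and by the other probe set the differences were -0.48 (adjusted p = 0.0092), -0.34 (adjusted p = 0.0426) and -0.16 (adjusted p = 0.294) in order of dose.

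IGFBP4 was lower with decitabine in A549. It had 5394 and 6102 in vehicle cells, 4437 and 4635 at 0.3 µM, 3684 and 3754 at 1 µM, and 3660.0 and 3679 at 3 µM of decitabine, and every decitabine array lay below both vehicle arrays. The difference was -0.34 at 0.3 µM and was not called (adjusted p = 0.279). IGFBP4 fell by 0.62 at 1 µM (SE 0.174, adjusted p = 0.0193) and by 0.64 at 3 µM (adjusted p = 0.0102). Without the second vehicle array these were -0.53 (adjusted p = 0.115) and -0.55 (adjusted p = 0.0775). Without the first array of the dose itself they were -0.61 (adjusted p = 0.0851) and -0.64 (adjusted p = 0.0610), and at 1 µM the call was also lost without the second (-0.63, adjusted p = 0.0865). With a pseudocount of 1 neither was called, though the differences hardly moved (-0.63 and -0.64). With azacitidine IGFBP4 had 4303 and 4997 at 3 µM, a difference of -0.31 that was not called (adjusted p = 0.185). With A549 fitted alone, this difference and that of decitabine at 0.3 µM were called (adjusted p = 0.0140 and 0.0376). H1299 signals of 3.57 to 41.3 entered the shared spread of the main fit, and their part in these p was not tested.

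The vehicle arrays of A549 lay apart in IGFBP2, with 164 and 319. With azacitidine IGFBP2 had 335 and 260.1 at 0.3 µM, 221 and 237 at 1 µM, and 129 and 122 at 3 µM. With decitabine it had 426 and 428 at 0.3 µM, 439 and 412 at 1 µM, and 409 and 383 at 3 µM. The 3 µM azacitidine arrays lay below both vehicle arrays, and all decitabine arrays lay above them. Against vehicle IGFBP2 fell by 0.73 with azacitidine at 3 µM (SE 0.250, adjusted p = 0.0263) and rose with decitabine by 0.80 at 1 µM (adjusted p = 0.0342) and 0.71 at 3 µM (adjusted p = 0.0445). At 0.3 µM of decitabine the difference was 0.81 and was not called (adjusted p = 0.0568), though it was with A549 fitted alone (adjusted p = 0.0420). The 3 calls of the main fit rested on single arrays: without the second vehicle array the azacitidine difference was -0.31. Without the first vehicle array the decitabine differences were 0.38 at 1 µM and 0.29 at 3 µM. Each was also lost without either treated array of its own dose, with a pseudocount of 1 and without the filter. The call at 3 µM of decitabine was also lost without any 1 of 14 arrays of other groups, with an unchanged difference and adjusted p = 0.0505 to 0.0529.

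IGFBP1 was higher with azacitidine at 3 µM in A549, and IGFBP3 was not called against vehicle there. IGFBP1 had 109 and 108 in vehicle cells, 114 and 136 at 0.3 µM, 149 and 139 at 1 µM, and 179 and 188 at 3 µM of azacitidine. It rose by 0.61 at 3 µM (SE 0.191, adjusted p = 0.0160), a call that was lost on leaving out any 1 of the 4 arrays compared (differences of 0.58 to 0.64, adjusted p = 0.0520 to 0.0797) or with a pseudocount of 1 (0.75, adjusted p = 0.176). With decitabine IGFBP1 had 133 and 90.0 at 0.3 µM, 141 and 141 at 1 µM, and 151 and 183 at 3 µM, with a difference of 0.50 at 3 µM that was not called (adjusted p = 0.0653). IGFBP3 had 2389 and 2540 in vehicle cells, 2121 and 2016 with azacitidine at 3 µM, and 3111 and 2781 with decitabine at 3 µM. Neither 3 µM difference of IGFBP3, -0.25 and 0.25, was called (adjusted p = 0.0679 and 0.0839). Both were called with A549 fitted alone (adjusted p = 0.0352 and 0.0468). Against 0.3 µM decitabine, 3 µM gave 0.36 more (adjusted p = 0.0344), which was lost by the other probe set (0.11, adjusted p = 0.905), without the second array of 0.3 µM (0.26, adjusted p = 0.286), without the repeat array (0.28, adjusted p = 0.271), with arrays centred on their medians and with a pseudocount of 1.

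Over the doses, members called against vehicle in A549 were 0, 2 and 4 of 6 with azacitidine at 0.3, 1 and 3 µM, and 2, 3 and 4 of 6 with decitabine. The shares of all kept probe sets were 1.68%, 23.8% and 35.0% with azacitidine and 6.44%, 14.6% and 23.7% with decitabine. All 12 vehicle comparisons of the lines use the same 2 vehicle arrays per line. For 3 µM minus 0.3 µM in A549, IGFBP2 (-1.06), IGFBP6 (-0.69) and IGFBP7 (-0.73) fell with azacitidine, 3 of 6 members beside 30.7% of all, and 1 of 6 was called with decitabine beside 8.01%. With a pseudocount of 1 the IGFBP2 and IGFBP7 calls were lost (adjusted p = 0.186 and 0.217). The epithelial markers summed to between 12607 and 13805 in A549 with azacitidine at 3 µM, between 22562 and 26925 with decitabine at 3 µM and between 18947 and 21361 with vehicle. As sums of linear signals they are mostly KRT18 and KRT8 (A549 medians of 12930 and 7281, against 225 for EPCAM). The part of these sums in the results was not tested. In bulk samples, fewer cells that express a gene and less of its RNA per cell cannot be told apart.

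**Figure D2:**
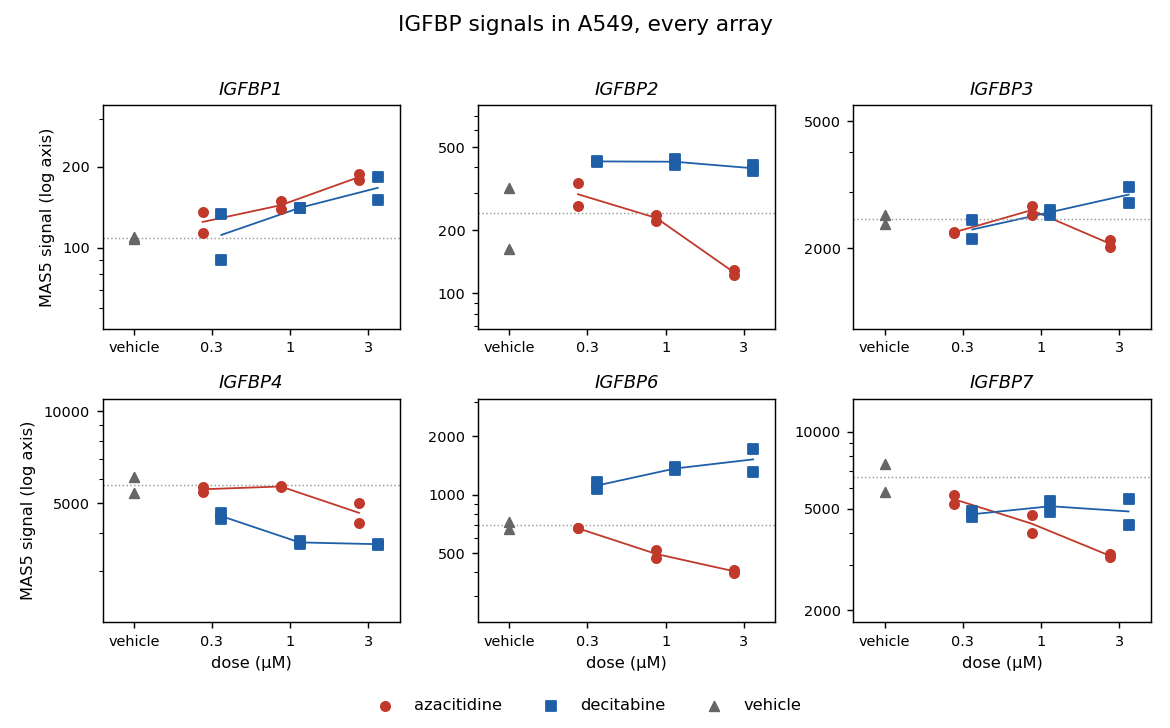
MAS5 signal (log axis) of 6 IGFBP genes on every A549 array by dose in µM, with the vehicle at the left, azacitidine as circles and decitabine as squares; each point is 1 array, lines join group means and the dotted line is the vehicle mean. IGFBP6 lies above vehicle with decitabine at every dose and below it with azacitidine at 1 and 3 µM, IGFBP7 declines with azacitidine, and the vehicle arrays of IGFBP2 lie apart at 164 and 319.

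The drugs were compared with each other at each of 3 matched doses in each line, 6 comparisons that use no vehicle array. Their structures differ in the sugar, a ribose in azacitidine and a deoxyribose in decitabine. IGFBP6 was lower with azacitidine than with decitabine in every comparison. In A549 it averaged 402 ± 10.4 with azacitidine and 1522 ± 297 with decitabine at 3 µM (SD, n = 2 each), and the differences were -0.71 (adjusted p = 0.0033), -1.41 (adjusted p = 1.20e-07) and -1.83 (adjusted p = 1.14e-09) in order of dose. In H1299 it averaged 65.6 ± 14.7 and 405 ± 14.3 at 3 µM, with differences of -0.76 (adjusted p = 0.0012), -1.45 (adjusted p = 5.89e-08) and -2.17 (adjusted p = 3.02e-11). At 0.3 µM in A549 the difference was -0.65 and not called without the second decitabine array (adjusted p = 0.0529).

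IGFBP3 and IGFBP1 separated the drugs in H1299. At 3 µM IGFBP3 averaged 82.0 ± 15.7 with azacitidine and 505 ± 52.3 with decitabine, and IGFBP1 9.42 ± 6.79 and 72.4 ± 12.5 (SD, n = 2 each). IGFBP3 was lower with azacitidine, with log2 differences of -1.05 (adjusted p = 5.99e-07), -1.88 (adjusted p = 2.23e-11) and -2.24 (adjusted p = 2.39e-13) in order of dose. By its other probe set the first of these was -0.49 (adjusted p = 0.493). IGFBP1 was lower too, with -1.35 (adjusted p = 8.54e-05), -1.16 (adjusted p = 8.93e-05) and -1.34 (adjusted p = 5.13e-06), and at 3 µM the pseudocount moved this between -2.98 and -0.54. In A549 no difference of IGFBP1 between the drugs was called, with intervals of -0.26 to 0.54, -0.37 to 0.42 and -0.28 to 0.51 in order of dose. IGFBP3 in A549 was lower with azacitidine only at 3 µM (-0.50, adjusted p = 4.51e-04), and by its other probe set that difference was -0.17 (adjusted p = 0.713). At 0.3 and 1 µM its intervals were -0.24 to 0.19 and -0.20 to 0.24.

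IGFBP2, IGFBP4 and IGFBP7 could be compared between the drugs in A549 only, since H1299 held them near the floor. IGFBP2 averaged 126 ± 5.20 with azacitidine and 396 ± 18.0 with decitabine at 3 µM (SD, n = 2 each), and the differences were -0.49 (not called, adjusted p = 0.320), -0.81 (adjusted p = 0.0170) and -1.44 (adjusted p = 7.39e-05) in order of dose. The one at 1 µM was lost without any 1 of its 4 arrays (-0.76 to -0.85, adjusted p = 0.0556 to 0.0862). IGFBP7 was lower with azacitidine at 3 µM (-0.56, adjusted p = 8.51e-04), and by its other probe set the difference was -0.83 (adjusted p = 2.79e-06). IGFBP4 was higher with azacitidine at 1 µM (0.61, adjusted p = 0.0107), a call lost with a pseudocount of 1 (adjusted p = 0.383) and without the second azacitidine array (adjusted p = 0.0521) or the first decitabine array (adjusted p = 0.0560). With a pseudocount of 1, IGFBP2 and IGFBP7 at 3 µM were not called either (-1.65 and -0.57, adjusted p = 0.0521 and 0.304). The IGFBP4 difference at 3 µM, 0.34, was not called in the main fit and was called with A549 fitted alone (adjusted p = 0.0059).

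**Figure D3:**
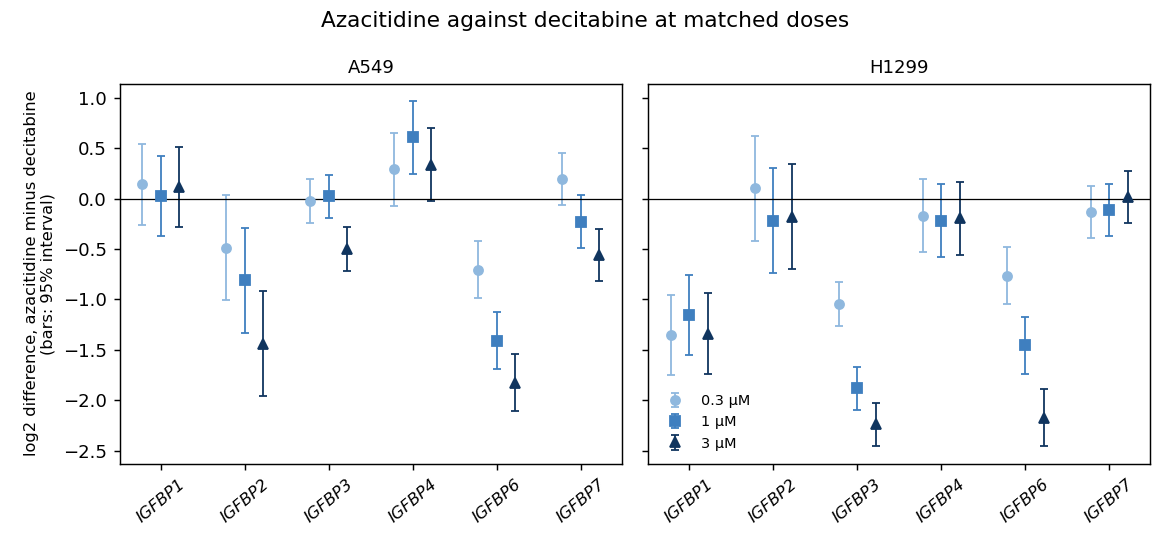
Log2 difference of azacitidine minus decitabine at 0.3, 1 and 3 µM for 6 IGFBP genes, with A549 at the left and H1299 at the right; points are fitted differences of 2 arrays each and bars their 95% intervals. IGFBP6 lies below 0 in both lines at each dose, and IGFBP1 and IGFBP3 lie well below 0 in H1299.

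Of the 6 members 1, 3 and 4 were called between the drugs in A549 at 0.3, 1 and 3 µM, beside 4.59%, 31.2% and 47.2% of all kept probe sets. In H1299 it was 3 at each dose, beside 5.46%, 31.0% and 52.7%. Of the 6, IGFBP1, IGFBP2, IGFBP4 and IGFBP7 were dim there and passed the filter only through A549. Averaged over the doses, the IGFBP6 difference was -1.31 in A549 (adjusted p = 1.90e-11) and -1.46 in H1299 (adjusted p = 2.49e-12). In H1299 it was -1.72 for IGFBP3 (adjusted p = 2.22e-15) and -1.28 for IGFBP1 (adjusted p = 4.15e-09). In A549 it was -0.91 for IGFBP2 (adjusted p = 1.99e-05) and 0.41 for IGFBP4 (adjusted p = 0.0017). The A549 averages of IGFBP3 (-0.17, adjusted p = 0.0221) and IGFBP7 (-0.20, adjusted p = 0.0253) were small, with overlapping arrays. The IGFBP3 call was lost without the second azacitidine array of 1 or 3 µM or the first decitabine array of any dose (-0.14 to -0.16, adjusted p = 0.0502 to 0.0828). The IGFBP7 call was lost without the first azacitidine array of 0.3 or 3 µM, the second of 1 µM, the second decitabine array of 0.3 or 3 µM or the first of 1 µM (-0.14 to -0.19, adjusted p = 0.0531 to 0.115). Centring on medians ended both calls (adjusted p = 0.115 and 0.0620), and a pseudocount of 1 ended those of IGFBP7 (adjusted p = 0.533) and IGFBP4 (adjusted p = 0.236). By its other probe set the IGFBP3 average was -0.08 (adjusted p = 0.771), and after quantile normalization that of IGFBP7 was -0.19 (adjusted p = 0.0590). Over doses 5 of 6 members were called in A549 (51.6% of all) and 3 of 6 in H1299 (50.7%).

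The lines' responses at 3 µM were compared directly. With decitabine IGFBP3 had a difference from vehicle of 0.25 in A549 and 2.18 in H1299, a difference between the lines of -1.93 (SE 0.147, adjusted p = 1.57e-08). This compares ratios from unlike baselines, as mean signals went from 2465 to 2946 in A549 and from 85.7 to 505 in H1299. IGFBP6 responded with 1.08 in A549 and 1.50 in H1299, and the lines' difference, -0.42, was not called (95% interval -0.82 to -0.02, adjusted p = 0.161). With azacitidine IGFBP6 fell by 0.74 in A549 and by 0.67 in H1299, and the lines' difference was -0.07 (95% interval -0.47 to 0.33, adjusted p = 0.825). IGFBP1, IGFBP2, IGFBP4 and IGFBP7 passed the filter only through A549. A test between the lines' responses would set their A549 change against dim H1299 signals, and none is read here. IGFBP1 responded to azacitidine with 0.61 in A549 and -0.27, near the floor, in H1299. Of IGFBP3 and IGFBP6, 0 were called between the lines with azacitidine and 1 with decitabine, beside 28.9% and 14.7% of all kept probe sets.

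Members differed in how they varied together. Over the 14 group means, each taken minus the mean of its line, Pearson's r was 0.79 for IGFBP1 with IGFBP3, 0.77 for IGFBP3 with IGFBP6, 0.68 for IGFBP2 with IGFBP6 and -0.43 for IGFBP2 with IGFBP4. The neighbours on chromosome 7, IGFBP1 and IGFBP3, are the pair with the highest r of the 6 tested members, but IGFBP1 was dim in H1299. Among the A549 groups, azacitidine at 3 µM had the highest mean of IGFBP1 (183) and the lowest of IGFBP3 (2068.5). A part of their shared location in this r was not tested. The points share arrays and scaling, and H1299 levels of several members lie near the floor. The genes whose pattern was most like each member's were named by the same measure. They were S100A6 (0.96), CXCL1 (0.95) and ARL14 (0.95) for IGFBP3, and ORMDL2 (0.96), CAPG (0.96) and IER3 (0.96) for IGFBP6. For IGFBP1 they were SFN (0.92), DPY19L2P2 (0.91) and MAEA (0.91), and for IGFBP2 ZMYND8 (0.95), SULT2B1 (0.95) and GAL3ST1 (0.94). For IGFBP7 they were THSD7A (0.92), PLA2G4A (0.91) and PDE4B (0.90), and for IGFBP4 DLEU1 (0.84), DIXDC1 (0.83) and MAPKAPK5-AS1 (0.83).

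The rest of the IGF axis was described at 3 µM against vehicle from lists written from general knowledge. Of 7 ligands and receptors, 3 receptors were tested and IGF2 was not among the kept genes. IGF1R, the receptor that carries the growth signal, was not called with azacitidine (-0.03 in A549 and 0.16 in H1299) or decitabine (0.28 and 0.04). IGF2R, which clears IGF2, fell by 0.34 in A549 (adjusted p = 0.0285) and rose by 0.87 in H1299 (adjusted p = 2.31e-06) with azacitidine. The insulin receptor INSR rose with azacitidine by 1.03 in A549 and, with vehicle arrays near the floor (74.7 and 44.6 with azacitidine, 6.60 and 24.4 with vehicle), by 0.95 in H1299. Of the 3 receptors, 1 was called higher and 1 lower with azacitidine in A549, and 2 higher in H1299. With decitabine 0 of the 3 were called in either line. The shares of all kept probe sets in A549 and H1299 were 35.0% and 51.0% with azacitidine and 23.7% and 27.1% with decitabine.

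In these 4 comparisons 35.0% and 51.0% of all kept probe sets were called with azacitidine and 23.7% and 27.1% with decitabine, in A549 and H1299, and the counts of each list below are to be read against these shares. Of 17 tested relays of IGF signalling, 5 were called higher and 3 lower with azacitidine in A549, and 7 higher and 4 lower in H1299. With decitabine 1 was higher and 1 lower in A549, and 4 were higher and 3 lower in H1299. Their median differences were 0.02 and 0.24 with azacitidine and 0.01 and 0.09 with decitabine, in A549 and H1299, beside 0.06, 0.08, 0.01 and -0.01 for all tested genes in that order. IRS2, an adaptor of the insulin and IGF1 receptors, rose with azacitidine by 0.77 in A549 and 2.57 in H1299. In H1299 it had 240.4 and 236 with azacitidine and 21.7 and 6.58 with vehicle, near the floor, so the size of that rise depends on the pseudocount. With decitabine IRS2 fell by 0.56 in A549 and rose by 1.36 in H1299. The transcription factor FOXO3, which AKT holds out of the nucleus, rose with azacitidine by 1.04 in A549 and 1.40 in H1299. Among other relays, GRB14, an adaptor that restrains the insulin receptor, fell by 1.46 and IRS1 by 0.72 with azacitidine in A549, where the related GRB10 rose by 0.84. In H1299 the exchange factor SOS1 rose by 1.18 and the PI3-kinase subunit PIK3R1 and GRB14 fell by 0.61 and 0.54 with azacitidine. With decitabine SOS1 rose by 0.27 in A549 and 0.39 in H1299, where PIK3R1 fell by 0.78 and AKT1 by 0.63.

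IGFBP proteases and the inhibitors of these moved on both sides. Of 15 tested, 2 were higher and 5 lower with azacitidine in A549, 2 higher and 4 lower in H1299, and with decitabine 1 higher and 3 lower in A549 and 2 higher and 4 lower in H1299. Their medians were -0.37 and -0.12 with azacitidine and 0.13 and -0.17 with decitabine, in A549 and H1299, beside the medians of all tested genes given for the relays. PAPPA, the protease of IGFBP4, rose by 0.68 with azacitidine in A549 (adjusted p = 0.0045). The stanniocalcins STC1 and STC2 inhibit PAPPA, and went opposite ways with azacitidine. STC1 averaged 172 with azacitidine and 430 with vehicle in A549 and 131 and 1862 in H1299, and STC2 averaged 1335 and 205 in A549 and 274 and 125 in H1299. The log2 differences were -1.18 and -3.54 for STC1 and 2.53 and 0.97 for STC2, in A549 and H1299. With decitabine both fell, STC1 by 0.32 and 0.87 and STC2 by 0.46 and 0.33, in A549 and H1299. The urokinase gene PLAU fell by 2.99 and the collagenase gene MMP1 rose by 1.21 with azacitidine in H1299. In A549 the matrix protease MMP7 fell by 1.40 with azacitidine and by 0.77 with decitabine, the complement protease C1S fell by 1.29 with azacitidine, and the plasminogen activator PLAT rose by 0.94 with decitabine. With decitabine in H1299 the protease HTRA1, dim in this line, fell by 1.04, MMP9 rose by 0.74 and MMP1 by 0.66.

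Of 5 tested IGFBP partners and cell-surface receptors, 2 were lower with azacitidine in A549, 1 higher and 2 lower in H1299, and with decitabine 1 was higher in A549 and 1 lower in H1299. The integrin ITGA5 fell by 0.56 and the adhesion receptor CD44 by 0.39 with azacitidine in A549. CD44 fell by 1.92 and the integrin ITGB1 by 0.61 with azacitidine in H1299, where CD44 fell by 0.34 with decitabine. The nuclear receptor RXRA, which binds IGFBP3, rose by 0.76 with azacitidine in H1299 and by 0.76 with decitabine in A549.

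Of 6 tested proteins that share the amino-terminal IGFBP domain, 2 were lower with azacitidine in A549, 1 higher and 2 lower in H1299, and with decitabine 1 was higher in A549 and 2 higher and 1 lower in H1299. CCN2, a matrix protein also known as connective tissue growth factor, averaged 8056 with decitabine and 1639 with vehicle in H1299, a rise of 2.27 (adjusted p = 9.53e-14). With azacitidine CCN2 rose by 0.72 in H1299 and fell by 0.71 in A549. Its relative CCN1 fell with azacitidine by 0.56 in A549 and 1.07 in H1299, and rose by 0.39 with decitabine in H1299. CRIM1 fell by 0.57 with azacitidine in H1299, and KAZALD1, dim on these arrays, rose by 0.56 with decitabine in A549.

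**Figure D4:**
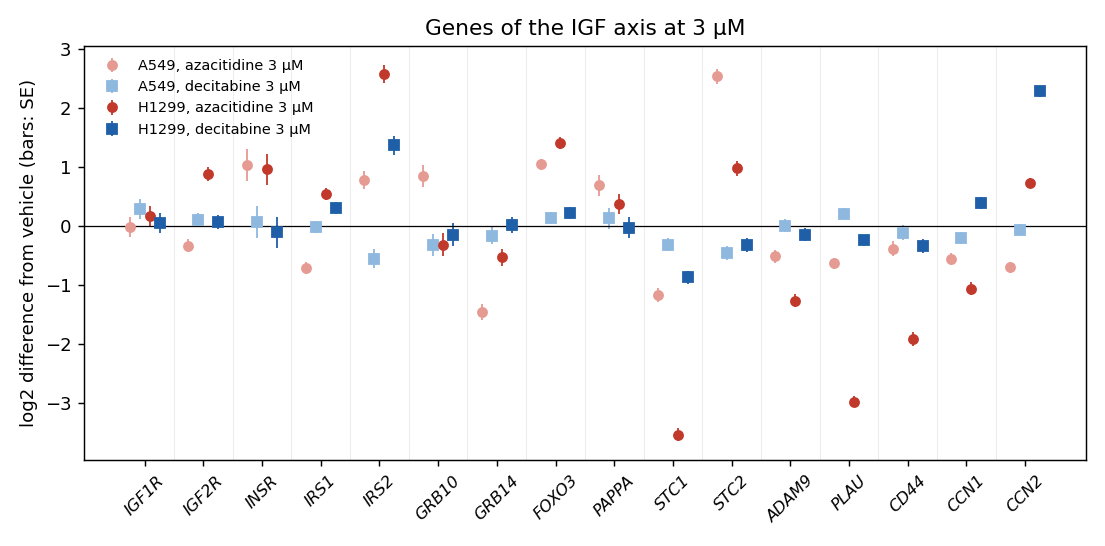
Log2 difference from vehicle at 3 µM for 16 genes of the IGF axis, with azacitidine as circles and decitabine as squares, A549 in light and H1299 in dark colours, and bars showing the standard error. IGF1R stays near 0 in all 4 comparisons, IRS2 lies at 2.57 with azacitidine in H1299, and STC1 and STC2 lie on opposite sides of 0 with azacitidine.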

How the data were processed

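Total RNA of 28 samples was hybridised to short-oligonucleotide expression arrays of 1 colour. The deposited values are MAS5 signal intensities on a linear scale, per the submitters' processing notes, whose version is not given in the sources used here. The trimmed mean of the arrays ran from 500.12 to 500.16. The platform annotation gave 19070 probe sets a single gene, 1043 several and 2164 none, and looking up Entrez identifiers changed 0 symbols.

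Values were taken as log2(signal + 32). Of the non-control probe sets, 13249 were kept, standing for 8024 genes. limma 3.58.1 (R 4.3.3, data.table version 1.17.8) was fitted to all 28 arrays with 1 mean per group (14 residual degrees of freedom), eBayes with an intensity trend, and Benjamini-Hochberg adjustment over all kept probe sets at 0.05, two-sided, for 27 comparisons. Of several kept probe sets, the brightest on average stood for its gene. No detection calls were used. Of the IGF axis lists, up to 2 called genes per direction, list and comparison were named, with IGF1R, IGF2, IGF2R and IRS2, and 3 genes per member by likeness. The members and lists were chosen with earlier results of these data known. Scripts were tested on simulated data. Alternatives were other scalings, pseudocounts, filters and probe sets, 1 probe set per gene, 1 line alone, no trend, a replicate block and leaving out each array. Replicates of a group correlated with r of 0.988 to 0.993. In the main fit replicate numbers were not used to pair samples across groups.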

Additional observations from a re-analysis of the deposited data

Results flagged for a closer look

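The difference between A549 and H1299 in the response to 3 µM was fitted for the 6 members with a kept probe set, and 4 passed the threshold. With decitabine the IGFBP3 response, A549 minus H1299, was -1.93 on the log2 scale, with 0.25 in A549 and 2.18 in H1299. Mean vehicle signals were 2465 in A549 and 85.7 in H1299, so these are ratios from unlike baselines. The other 3 are of genes that passed the filter only through A549, so the difference is given as a description only. With azacitidine it was 0.88 for IGFBP1, with 0.61 in A549 and -0.27, near the floor, in H1299, and it no longer passed on leaving out any 1 of 3 arrays (adjusted p = 0.0521 to 0.0911). For IGFBP4 with decitabine it was -1.10, with a fall of 0.64 in A549 and a rise of 0.46 in H1299, where signals stayed at or under 41.3. That H1299 rise, near the floor, was not called in the main fit and passed in some alternatives. For IGFBP7 with azacitidine it was -0.99, with a fall of 1.00 in A549 and signals at or under 22.1 in H1299 by either kept probe set.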

How the results depend on the processing

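Of 66 called differences of the members, 37 kept their call in every alternative run for them (up to 40 each), 29 lost it in at least 1 and 0 changed sign. Of 96 differences that were not called, 25 passed in at least 1. These tallies include comparisons between the lines for IGFBP1, IGFBP2, IGFBP4 and IGFBP7, which passed the filter only through A549. The H1299 decitabine calls of IGFBP6 and IGFBP1 held in each, and those of IGFBP3 in all but its other probe set at 0.3 µM. Median centring moved the median of all kept probe sets by -0.15 to 0.13. The other IGFBP7 probe set gave 0.28 (adjusted p = 0.0364) for azacitidine at 3 µM minus vehicle in H1299 and called the azacitidine minus decitabine mean, 0.23, against the sign of the first, so H1299 counts higher became 1 instead of 0 for azacitidine against vehicle, for the matched doses and for the mean. The cause was not tested.

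The counts below are of genes over doses. Against vehicle in A549, azacitidine gave 1 higher and 5 lower (0 and 2 with a pseudocount of 1, and 0 higher with the 75th percentile filter). Decitabine gave 5 higher (3 with a pseudocount of 1, no filter or the 75th percentile filter, 8 with the higher pseudocount) and 4 lower (0 with a pseudocount of 1). H1299 azacitidine gave 1 lower (2 with a pseudocount of 1). Azacitidine minus decitabine in A549 gave 1 higher (0 with a pseudocount of 1, 2 with the higher or 1 line alone) and 7 lower (4 with a pseudocount of 1). Its mean over doses gave 1 higher (0 with a pseudocount of 1) and 4 lower (2 with median centring). For 3 minus 0.3 µM, 2 were higher (1 with median centring, a pseudocount of 1 or the other IGFBP3 probe set, 5 with the higher pseudocount, 4 with the 75th percentile filter). Between the lines' responses 1 was higher (0 with the 75th percentile filter) and 3 lower (1 with a pseudocount of 1).

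On leaving out 1 array in turn, these counts ran from 0 to 1 (A549 azacitidine higher), 3 to 5 (lower), 2 to 6 (A549 decitabine higher), 2 to 5 (lower), 0 to 2 (A549 azacitidine minus decitabine higher), 2 to 4 (its mean over doses, lower), 1 to 4 (3 minus 0.3 µM, higher) and 0 to 1 (lines, higher). All member calls together ran from 59 to 72. H1299 decitabine against vehicle stayed at 9 or 10 higher.

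Samples of the same number deviated together in only some pairs of groups, with correlations from -0.228 to 0.247 in A549 and -0.0684 to 0.145 in H1299. With a replicate block 68 differences were called, against 66 without, and IGFBP2 with decitabine at 3 µM in A549 was the call lost (0.71, adjusted p = 0.0511). The 3 gained were of IGFBP1, with decitabine at 3 µM in A549 (0.50, adjusted p = 0.0420) and for azacitidine at 3 minus 0.3 µM in A549 (0.46, adjusted p = 0.0489) and H1299 (-0.45, adjusted p = 0.0359). With 2 arrays a group, small differences could be missed, though some were called, and genes near the floor have no order.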
